A study of Mus musculus with 60 samples.

Results

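The fibroblast surface and identity genes are 10 of the 56980 genes listed in each of the count tables, and they are genes by which fibroblasts are commonly recognised in mouse tissue and culture. They were chosen by name, but with earlier results of these data known. Thy1, Pdgfra, Pdgfrb, Cd34 and Ly6a encode surface proteins, and Dpt and Pi16 mark adventitial (universal) fibroblasts. Vim and S100a4 encode an intermediate filament protein and a calcium-binding protein, and Fap encodes a surface protease. All 10 members passed the filter on low counts in both tables. The study reprogrammed mouse tail tip fibroblasts with Oct4, Sox2, Klf4 and c-Myc (OSKM) for up to 4 days, with or without the small molecules VC, and in a second experiment exposed fibroblasts to inhibitors of TGFb or BMP receptors. RNA sequencing gave 36 reprogramming libraries in 12 groups and 24 inhibitor libraries in 8 groups, with 3 libraries a group.

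In the reprogramming experiment the D/KO cells carried a knockout and a truncated (delta) allele of Ercc1, which encodes part of a DNA repair endonuclease, and came from a male of 8 weeks. The WT cells, with an OCT4-GFP reporter, came from a female of 22 weeks. Both lines carried a doxycycline-inducible OSKM cassette, for which the study cites different source mice, and the rtTA activator. Day 0 cells had no doxycycline, day 2 and day 4 cells had 2 µg/ml for that time, and VC stands for ascorbic acid at 50 µg/ml with the GSK3 inhibitor CHIR99021 at 3 µM. In the inhibitor experiment D/KO tail tip cells from a female of 4 weeks had no inhibitor (control), Repsox or Vactosertib at 0.1 µM, or A83-01 or DMH-1 at 1 µM, for 3 days. Repsox and A83-01 inhibit the TGFb receptor ALK5 and DMH-1 the BMP receptor ALK2, and the study describes Vactosertib as acting on both. WT tail tip and WT skin cells each came from a female of 14 weeks, under different WT names in the library titles. A further group of WT OSKM cells from a female of 22 weeks had the treatment label TGFB. Genotype, age and line therefore cannot be told apart in any comparison of D/KO with WT, nor can sex and OSKM cassette in the reprogramming experiment. The labels do not say that the 3 libraries of a group came from separate animals. The p-values therefore measure the spread between these libraries, which may be technical.

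Fibroblasts are the mesenchymal cells that build and maintain connective tissue, and no one gene marks all of them. Thy1 is the surface antigen that the study stained as its marker of somatic identity, and it is usually lost in the course of reprogramming to pluripotency. Pdgfra and Pdgfrb are the receptors that carry PDGF growth signals, whereas Cd34, Ly6a (Sca-1), Dpt (dermatopontin) and Pi16 (peptidase inhibitor) are typical of the fibroblasts of the adventitia and fascia, which are often described as progenitor-like.

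Total counts ran from 16538374 to 18484951 in the reprogramming libraries and from 17102639 to 30599138 in the inhibitor libraries. Ercc1 was lower in D/KO (8.04 to 18.6 CPM, counts scaled to the size of the library) than in WT (16.9 to 29.1 CPM) reprogramming libraries, with overlap, whereas in the inhibitor experiment D/KO (13.2 to 23.5 CPM) and WT tail tip cells (13.3 to 21.7 CPM) overlapped, so its level does not check those labels. The second Repsox library, the first WT skin library and the second WT tail tip library stood apart from the others of their group, and members whose calls change without these 3 libraries are named where the inhibitor results are given. Markers of other cell types were present in both lines before reprogramming. At day 0 the 10 endothelial markers summed to 889 to 981 CPM in D/KO (Pecam1 191 to 213 CPM) and 17.7 to 21.3 CPM in WT (Pecam1 0.11 to 0.161 CPM), the 10 leukocyte markers to 8.66 to 11.6 CPM in D/KO and 75 to 148 CPM in WT, and the 12 keratinocyte markers to 5.74 to 7.78 and 18.6 to 24.8 CPM. From day 0 with VC to day 4 with VC the keratinocyte sum went from 5.75 to 10.2 CPM to 708 to 823 CPM in D/KO and from 36.3 to 41.6 CPM to 67.3 to 88.2 CPM in WT. The leukocyte sum went from 5.8 to 9.96 CPM to 322 to 528 CPM in D/KO, of which Laptm5 was 317 to 524 CPM while the pan-leukocyte Ptprc was at 0 to 0.0529 CPM, and from 67.8 to 121 CPM to 58.7 to 61.5 CPM in WT. The part of these markers in the results below was not tested. In cultures measured in bulk, fewer cells of a type and less RNA per cell cannot be told apart.

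The promoters of the members that moved most, and of Vim as the most abundant member, are shown so that the sequence upstream of each start can be set beside its levels. RefSeq promoter sequence (GRCm38.p6) was held for 6 of the 10 members, Dpt, Cd34, Vim, S100a4, Pdgfra and Pi16, and the 250 bases before the start of 4 of them follow, with the TATA box TATAAA in capitals where it was found. All 4 lie on the plus strand, Pi16 at chr17:29318632-29318881, Cd34 at chr1:194938571-194938820, Dpt at chr1:164796413-164796662 and Vim at chr2:13574061-13574310.
Pi16: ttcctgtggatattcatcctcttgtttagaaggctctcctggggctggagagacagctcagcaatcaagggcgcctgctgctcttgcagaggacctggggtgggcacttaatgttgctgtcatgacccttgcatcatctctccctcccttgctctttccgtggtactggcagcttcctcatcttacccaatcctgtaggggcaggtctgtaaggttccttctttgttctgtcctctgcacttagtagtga
Cd34: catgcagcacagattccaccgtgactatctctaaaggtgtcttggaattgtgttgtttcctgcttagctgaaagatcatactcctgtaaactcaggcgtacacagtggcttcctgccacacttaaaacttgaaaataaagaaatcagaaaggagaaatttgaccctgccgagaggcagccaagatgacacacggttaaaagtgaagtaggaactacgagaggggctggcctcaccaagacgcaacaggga
Dpt: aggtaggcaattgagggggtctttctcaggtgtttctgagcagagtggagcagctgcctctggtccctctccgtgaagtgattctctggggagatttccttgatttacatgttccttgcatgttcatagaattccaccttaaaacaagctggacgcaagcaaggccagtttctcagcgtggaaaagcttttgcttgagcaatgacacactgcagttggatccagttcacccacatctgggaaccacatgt
Vim: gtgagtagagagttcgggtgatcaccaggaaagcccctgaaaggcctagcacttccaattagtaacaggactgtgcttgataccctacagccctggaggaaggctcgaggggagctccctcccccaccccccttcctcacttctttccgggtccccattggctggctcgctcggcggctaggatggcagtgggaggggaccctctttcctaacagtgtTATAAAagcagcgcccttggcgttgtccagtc
Both strands of each window were searched for 6 strings: the TATA box TATAAA, the AP-1 site TGANTCA, the E-box CACGTG, the octamer ATGCAAAT, the Klf site CCACACCC and the Sox site CATTGTT. They occurred in 12.4%, 6.75%, 6.02%, 1.60%, 3.20% and 3.29% of all 32851 promoter windows of this length. Among the 6 members with sequence, the TATA box was found in Vim (32 to 27 bases before the start) and in S100a4 (31 to 26 bases before the start), and none of the other strings was found in any of the 6 windows, which says only that these letters are not there.

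Against day 0 of the same arm (with or without VC), Cd34 and Pi16 were higher in all 8 comparisons of D/KO and WT cells, and no member was lower in all 8. Dpt was lower in 7 of the 8. Pdgfra and Pdgfrb were each lower in 6, which were the 4 D/KO comparisons and both WT comparisons with VC. Thy1, the antigen used for somatic identity, was higher in 6 and lower in none, and Ly6a was higher in 6. Fap was higher in 5, Vim in 4 and S100a4 in none, and S100a4 was lower in 1. Here and below a gene is called higher or lower at a Benjamini-Hochberg adjusted p under 0.05 in edgeR's quasi-likelihood test, adjusted over all genes tested.

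In D/KO cells 7 of the 10 members were called at day 2, where 27.4% of all genes tested were called, and 6 at day 4 (36.8% of all genes). With VC, 8 members were called at day 2 (47.2% of all genes) and 8 at day 4 (53.8%). In WT cells 6 members were called at day 2 (10.6%), 6 at day 4 (24.3%), 9 at day 2 with VC (27.4%) and 8 at day 4 with VC (44.5%). The WT count at day 2 fell to 3 without WT day 0 replicate 1 or without WT day 2 replicate 2. The WT count at day 4 without VC was 4 to 5 when any 1 of its libraries was left out. The members did not move as a block: the median log2 fold change of the 10 was 0.15 at D/KO day 4 and 0.63 at D/KO day 4 with VC, and 0.32 and 0.13 in WT, while the medians of all genes lay between -0.01 and 0.03. Fewer members were called between the later times: from day 2 to day 4 without VC no member was called in D/KO (9.41% of all genes, 3 members at an unadjusted p under 0.05 and 0 by DESeq2, which called 10.9% of all genes) and 2 in WT (21.4%), a count that was 0 without WT day 2 replicate 2, 4 without WT day 2 replicate 3 and 1 without any of the other 4 libraries. With VC, 6 members were called between these times in D/KO (15.4% of all genes) and 6 in WT (20%). When any 1 of the 6 libraries compared was left out, the count was 4 to 5 in D/KO and 1 to 3 in WT. VC against no VC at day 4 gave 5 members in D/KO (34.3% of all genes) and 6 in WT (22.2%).

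**Figure D1:**
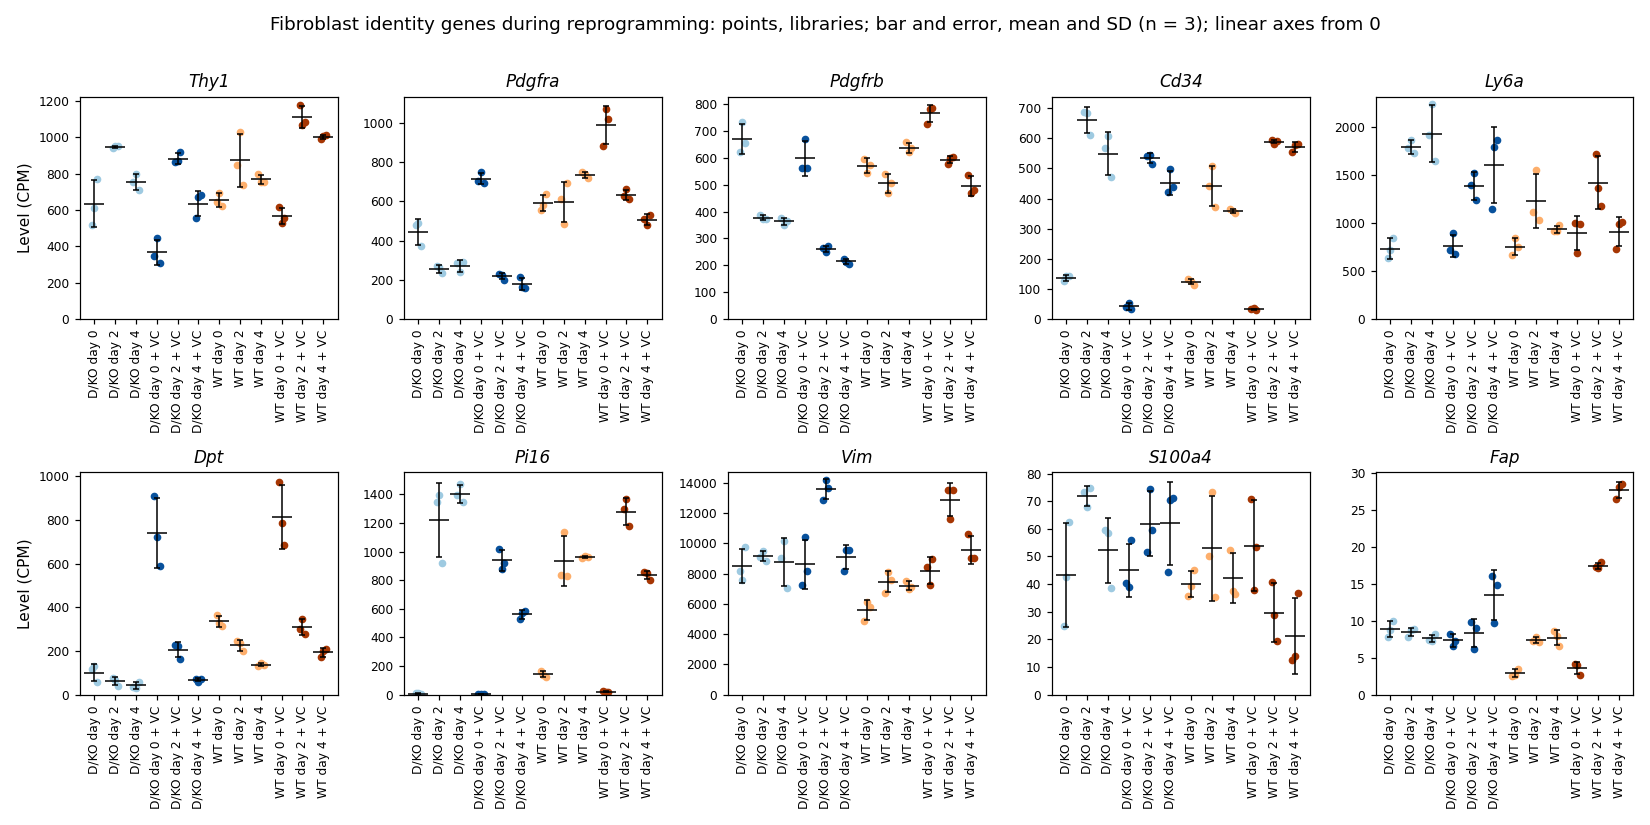
CPM (linear axes from 0) of the 10 members in each of the 36 reprogramming libraries, 1 panel a gene, with groups of D/KO and WT cells along the x axis, points for libraries and bars with error for the group mean and SD. Pi16 in D/KO cells rises from 2.06 to 9.09 CPM at day 0 to 1347 to 1474 CPM at day 4, and Dpt is highest at day 0 with VC in both lines.

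Thy1 (chr9:43954681-43959876, plus strand, GRCm39, as are all gene positions here) encodes the GPI-anchored surface antigen CD90 and was not called lower than day 0 of its arm at day 2 or day 4. In D/KO cells the 3 libraries had 520.3, 610.3 and 773 CPM at day 0, 941, 952 and 953 CPM at day 2 and 753, 797 and 712 CPM at day 4. Day 2 lay above day 0 without overlap (log2 fold change 0.58 ± 0.12, edgeR adjusted p = 0.000295, SE), and day 4 overlapped day 0 (0.25 ± 0.12, edgeR adjusted p = 0.111). With VC, Thy1 had 349, 444 and 310 CPM at day 0, 865, 868 and 919 CPM at day 2 and 555, 672 and 681 CPM at day 4. The rise at day 4 with VC (0.79 ± 0.12, edgeR adjusted p = 8.73e-07) was measured against a day 0 that VC itself had lowered (-0.79 ± 0.12, edgeR adjusted p = 3.45e-06). Against day 0 without VC it was 0.00 (edgeR adjusted p = 0.986). From day 2 to day 4 Thy1 then fell in D/KO with VC (-0.47 ± 0.12, edgeR adjusted p = 0.00481), a call that was lost without D/KO day 4 with VC replicate 1 (-0.39, edgeR adjusted p = 0.056), and without VC the difference between these times was -0.33 ± 0.12, edgeR adjusted p = 0.0838, with no overlap of the libraries.

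WT cells had 622 to 696 CPM of Thy1 at day 0 and 755 to 798 CPM at day 4, and 529 to 617 and 989.6 to 1012 CPM with VC. The WT libraries of day 4 with VC lay above every WT library without doxycycline (0.82 ± 0.12, edgeR adjusted p = 7.39e-07, against day 0 with VC). The change by day 4 did not differ detectably between D/KO and WT (0.01 ± 0.17, edgeR adjusted p = 0.988 for the D/KO change minus the WT change, 95% confidence interval -0.344 to 0.367). At WT day 2 the rise (0.42 ± 0.12, edgeR adjusted p = 0.0196) was lost without WT day 0 replicate 1 (0.41, adjusted p = 0.0786 in edgeR), without WT day 0 replicate 3 (edgeR adjusted p = 0.102) and without WT day 2 replicate 2 (edgeR adjusted p = 0.239).

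Pdgfra (chr5:75312953-75358876, plus strand) encodes the PDGF receptor alpha, and Pdgfrb (chromosome 18) its paralogue beta, and both were lower in D/KO cells at every time with doxycycline. Pdgfra had 478, 488 and 370.3 CPM in D/KO at day 0 and 286, 238 and 289 CPM at day 4. With VC it had 702, 748 and 695 CPM at day 0 and 213, 161 and 159 CPM at day 4. Neither pair of groups overlapped, and the log2 fold changes were -0.72 ± 0.12, edgeR adjusted p = 5.44e-06 without VC and -2.01 ± 0.12, edgeR adjusted p = 7.42e-17 with VC, the second a 4.02-fold lower mean. VC alone raised Pdgfra at day 0 (0.68 ± 0.12, edgeR adjusted p = 2.41e-05 in D/KO and 0.74 ± 0.12, edgeR adjusted p = 6.29e-06 in WT). Measured from day 0 without VC, the fall at D/KO day 4 with VC was -1.33 (edgeR adjusted p = 5.84e-12).

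WT cells kept more Pdgfra. They had 556, 582 and 637 CPM at day 0, 748, 741 and 719.8 CPM at day 4, 882, 1069.9 and 1017 CPM at day 0 with VC and 513, 477 and 530 CPM at day 4 with VC. Without VC the WT value at day 4 was higher than at day 0 (0.31 ± 0.12, edgeR adjusted p = 0.0487), a call that was lost when any of 5 of the 6 libraries was left out, with edgeR adjusted p from 0.0748 (without WT day 4 replicate 3) to 0.148 (without WT day 0 replicate 1). With VC it was lower (-0.97 ± 0.12, edgeR adjusted p = 1.73e-08), but against day 0 without VC the difference was -0.22 (edgeR adjusted p = 0.135). At day 2 with VC the WT fall of -0.64 turned to 0.10 on that baseline. The D/KO change minus the WT change was -1.03 ± 0.17, edgeR adjusted p = 2.33e-05 at day 4 and -1.04 ± 0.17, edgeR adjusted p = 9.18e-06 at day 4 with VC. At day 4, 14.1% of all genes tested had a D/KO change called different from the WT change, and at day 4 with VC 29.1% had.

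Pdgfrb followed the same course in D/KO cells, with 623, 732 and 653 CPM at day 0, 377, 350.1 and 364 CPM at day 4 and 225, 212 and 207 CPM at day 4 with VC. The groups did not overlap, and the log2 fold changes were -0.88 ± 0.09, edgeR adjusted p = 1.18e-10 at day 4 and -1.48 ± 0.09, edgeR adjusted p = 5.15e-17 at day 4 with VC. In WT cells it had 596, 541 and 574 CPM at day 0 and 657, 620 and 636 CPM at day 4 (0.16 ± 0.09, edgeR adjusted p = 0.189), and 536, 468 and 480.5 CPM at day 4 with VC (-0.63 ± 0.09, edgeR adjusted p = 2.21e-07). As for Pdgfra, the WT fall with VC rested on the day 0 with VC libraries (726 to 786 CPM), and against day 0 without VC it was -0.21 (edgeR adjusted p = 0.0592) at day 4 and 0.0539 at day 2. D/KO and WT changes differed by -1.04 ± 0.12, edgeR adjusted p = 7.99e-08 at day 4 and -0.85 ± 0.12, edgeR adjusted p = 1.7e-06 at day 4 with VC.

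In the comparisons of day 4 with VC, 27.8% of all genes were called higher and 26% lower in D/KO, and 22.6% higher and 21.9% lower in WT, and the counts of the gene lists given from here on stand against these shares. Of the 7 PDGF ligands and receptor relatives tested, none was called higher and 5 lower at D/KO day 4 with VC, led by the ligands Pdgfd (-2.34) and Pdgfc (-1.25). In WT at day 4 with VC, 2 were higher, Pdgfrl (0.89) and the ligand Pdgfa (0.58), and 3 lower, among them Pdgfd (-0.94) and the CSF-1 receptor Csf1r (-2.01).

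Cd34 (chr1:194621127-194643587, plus strand), a sialomucin found on adventitial fibroblasts, blood progenitors and endothelium, rose in every comparison with day 0. D/KO libraries had 126, 144 and 142 CPM at day 0, 688, 684 and 609.9 CPM at day 2 and 569, 608 and 472 CPM at day 4, so that each library with doxycycline was above each without. The day 4 mean was 3.99-fold that of day 0 (log2 fold change 2.00 ± 0.12, edgeR adjusted p = 2.19e-16). With VC the libraries went from 41.3, 55.2 and 33 CPM at day 0 to 423, 497 and 438 CPM at day 4 (3.39 ± 0.13, edgeR adjusted p = 8.96e-23). VC alone lowered Cd34 in both lines (-1.67 ± 0.13, edgeR adjusted p = 1.68e-13 in D/KO and -1.90 ± 0.13, edgeR adjusted p = 1.06e-14 in WT), and against day 0 without VC the rise at D/KO day 4 with VC was 1.72 (edgeR adjusted p = 5.98e-15).

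In WT cells Cd34 had 132, 127 and 114 CPM at day 0, 364, 357 and 353 CPM at day 4, 32.5, 35.5 and 31.6 CPM at day 0 with VC and 554, 579 and 581 CPM at day 4 with VC. The rises were 1.53 ± 0.12, edgeR adjusted p = 1.36e-12 and 4.10 ± 0.14, edgeR adjusted p = 1.61e-24, and the second was larger than in D/KO (D/KO change minus WT change -0.71 ± 0.17, edgeR adjusted p = 0.00173). Adding VC at day 4 raised Cd34 in WT (0.67 ± 0.12, edgeR adjusted p = 3.58e-05) and left it at -0.28 ± 0.12, edgeR adjusted p = 0.0638 in D/KO. Because Cd34 is also an endothelial gene, the 10 endothelial markers are set beside it. In D/KO their sum was 889 to 981 CPM at day 0 and 478 to 567 CPM at day 4, and with VC it went from 338 to 387 CPM at day 0 to 698 to 928 CPM at day 4. Of the 10 markers, 4 were called higher and 4 lower at D/KO day 4 with VC. The angiopoietin receptor Tek (7.77 to 10 CPM and then 94.8 to 125 CPM) and Ramp2, a subunit of the adrenomedullin receptor (8.49 to 10.4 and then 105 to 126 CPM), had the smallest adjusted p of the higher ones, and Emcn (30.7 to 39.2 and then 4.65 to 5.46 CPM) and Egfl7 (-2.62) of the lower ones. The platelet-endothelial antigen Pecam1 went from 69.7 to 79 to 211 to 289 CPM and the vascular cadherin Cdh5 from 82.5 to 116 to 61 to 79.1 CPM. In WT with VC the sum went from 8.17 to 11.9 CPM to 177 to 181 CPM, nearly all of it Tek (97.8 to 115 CPM) and Ramp2 (61.8 to 78.2 CPM), while Pecam1 (0 to 0.0581 CPM), Cdh5 (0.274 to 0.639 CPM), Kdr, Tie1 and Emcn (0 in each library) were at or near 0. Tek and Ramp2 were the 2 markers called higher in WT, and 3 were lower, Esam and Egfl7 first. Both of these had low means, 0.68 and then 0.0929 CPM for Esam and 0.783 and then 0.129 CPM for Egfl7.

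Ly6a (chr15:74866726-74869880, minus strand), the GPI-anchored antigen Sca-1, rose more in D/KO than in WT cells. D/KO libraries had 635, 721 and 846 CPM at day 0, 1912, 2234 and 1643 CPM at day 4 and 1143, 1795 and 1866 CPM at day 4 with VC. All libraries with doxycycline were above those of day 0 (1.39 ± 0.18, edgeR adjusted p = 6.59e-08 at day 4 and 1.07 ± 0.18, edgeR adjusted p = 4.12e-06 at day 4 with VC). WT libraries had 665 to 842 CPM at day 0, 1030.5 to 1547 CPM at day 2, 913 to 979 CPM at day 4 and 732 to 1005 CPM at day 4 with VC. The WT rise was called at day 2, both without VC (0.71 ± 0.18, edgeR adjusted p = 0.0058) and with it (0.67 ± 0.18, edgeR adjusted p = 0.00372), and not at day 4 (0.32 ± 0.18, edgeR adjusted p = 0.196). The D/KO change exceeded the WT change by 1.08 ± 0.25, edgeR adjusted p = 0.00243 at day 4 and 1.04 ± 0.25, edgeR adjusted p = 0.00165 at day 4 with VC. The call at WT day 2 was lost without WT day 0 replicate 1 (0.64, edgeR adjusted p = 0.0518) or WT day 2 replicate 2 (0.51, edgeR adjusted p = 0.1).

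Ly6a has close copies in the same cluster, so its counts are uncertain as far as reads were split among them. Of the 7 Ly6 genes tested in the reprogramming libraries, 4 were called higher and 1 lower at D/KO day 4 with VC. The higher ones included Ly6c1 (1.75) and Ly6d, a gene of stratified epithelium and lymphoid cells, and the lower one was Ly6e (-0.53). At WT day 4 with VC 3 were higher, Ly6c2 (1.03) and Ly6d among them, and Ly6e was lower (-0.81).

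Pi16 (chr17:29536654-29549567, plus strand) had the largest change of the 10 members in each of the 8 comparisons with day 0. D/KO libraries had 9.09, 8.92 and 2.06 CPM at day 0 (35 to 152 reads), 1347, 1397 and 921 CPM at day 2 and 1394, 1474 and 1347 CPM at day 4. The lowest library with doxycycline was thus far above the highest without, and the log2 fold change at day 4 was 7.72 ± 0.30, edgeR adjusted p = 6.9e-19, a mean 210-fold higher. With VC, Pi16 had 1.49, 1.51 and 0.632 CPM at day 0 (9 to 23 reads), 1019, 875 and 923 CPM at day 2 and 528, 568 and 588 CPM at day 4 (8.85 ± 0.35, edgeR adjusted p = 2.48e-19). In D/KO, VC thus lowered Pi16 without doxycycline (-2.45 ± 0.38, edgeR adjusted p = 8.97e-06) as well as after 4 days of it (-1.32 ± 0.22, edgeR adjusted p = 2.03e-05). Against day 0 without VC, the rise at day 4 with VC was 6.40.

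WT cells started higher. They had 166, 135 and 126 CPM at day 0, 956, 969 and 964 CPM at day 4, 23.3, 18.8 and 17.7 CPM at day 0 with VC and 859.7, 849.6 and 805 CPM at day 4 with VC. The rises were 2.76 ± 0.23, edgeR adjusted p = 1.55e-10 and 5.39 ± 0.27, edgeR adjusted p = 2.17e-16. At day 0 D/KO cells had 21.3-fold less Pi16 than WT (-4.42 ± 0.27, edgeR adjusted p = 3.8e-14), whereas at day 4 the D/KO libraries (1347 to 1474 CPM) lay above the WT libraries (956 to 969 CPM). The D/KO change exceeded the WT change by 4.96 ± 0.34, edgeR adjusted p = 1.1e-11 at day 4 and 3.46 ± 0.42, edgeR adjusted p = 2.86e-07 at day 4 with VC. Between day 2 and day 4 with VC Pi16 fell in D/KO (-0.74 ± 0.22, edgeR adjusted p = 0.0177), where 6 members and 15.4% of all genes were called, though without D/KO day 2 with VC replicate 1 it was -0.68 (edgeR adjusted p = 0.0716) and the call was also lost without D/KO day 4 with VC replicate 1 or 2.

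Dpt (chr1:164624213-164651835, plus strand) encodes dermatopontin, a small matrix protein, and went the opposite way to Pi16 and Cd34. VC alone raised it: D/KO libraries had 115, 132 and 56.4 CPM at day 0 and 909, 724 and 590.3 CPM at day 0 with VC, a 7.33-fold higher mean (2.88 ± 0.26, edgeR adjusted p = 1.35e-09), and in WT the rise was 1.28 ± 0.25, edgeR adjusted p = 0.000214. VC alone changed 5 of the 10 members in D/KO (25.9% of all genes) and 6 in WT (29.3%). With doxycycline and VC, Dpt in D/KO then fell to 228, 225 and 165 CPM at day 2 and 73.4, 59.3 and 69.9 CPM at day 4, without overlap (-3.45 ± 0.27, edgeR adjusted p = 8.91e-12 at day 4). Measured from day 0 without VC, Dpt was instead higher at D/KO day 2 with VC (1.03, edgeR adjusted p = 0.00116) and -0.58 at day 4 with VC (edgeR adjusted p = 0.0527).

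Without VC, D/KO libraries had 36.3, 30.4 and 58.3 CPM of Dpt at day 4, which overlapped day 0 through replicate 3 of each (-1.28 ± 0.25, edgeR adjusted p = 0.000175). At D/KO day 2 the fall (-0.73 ± 0.25, edgeR adjusted p = 0.0296) was lost without D/KO day 0 replicate 1 (-0.62, edgeR adjusted p = 0.114), D/KO day 0 replicate 2 (-0.49, edgeR adjusted p = 0.196) or D/KO day 2 replicate 3 (-0.50, edgeR adjusted p = 0.174). WT libraries had 364, 329.7 and 313 CPM at day 0 and 130.4, 145 and 133 CPM at day 4, with no overlap (-1.30 ± 0.25, edgeR adjusted p = 0.000234). With VC they went from 685 to 973 CPM at day 0 to 171 to 210.3 CPM at day 4 (-2.08 ± 0.25, edgeR adjusted p = 1.17e-07). The change with VC was larger in D/KO than in WT (-1.38 ± 0.35, edgeR adjusted p = 0.00338) when measured from day 0 with VC. From day 0 without VC the day 4 with VC values were -0.58 in D/KO and -0.80 in WT (edgeR adjusted p = 0.0108 in WT), and the difference between the lines turned to 0.22 (edgeR adjusted p = 0.732). The change without VC was not detectably different (0.02 ± 0.35, edgeR adjusted p = 0.987, 95% confidence interval -0.7 to 0.749).

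The other genes used for adventitial fibroblasts were also mixed. Of the 16 tested, 8 were called higher and 4 lower at D/KO day 4 with VC, and 12 higher and 2 lower at WT day 4 with VC. The complement regulator Cd55 rose (4.80 in D/KO and 2.89 in WT), as did the basement membrane collagen Col15a1 (1.87 and 3.22). The matrix genes Lum (lumican) and Mfap5 (a microfibril protein) fell, with -3.38 in D/KO and -1.23 in WT for Lum and -1.57 and -0.69 for Mfap5. The median of the list was 0.45 in D/KO and 0.74 in WT, beside 0.01 and 0.03 for all genes.

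**Figure D2:**
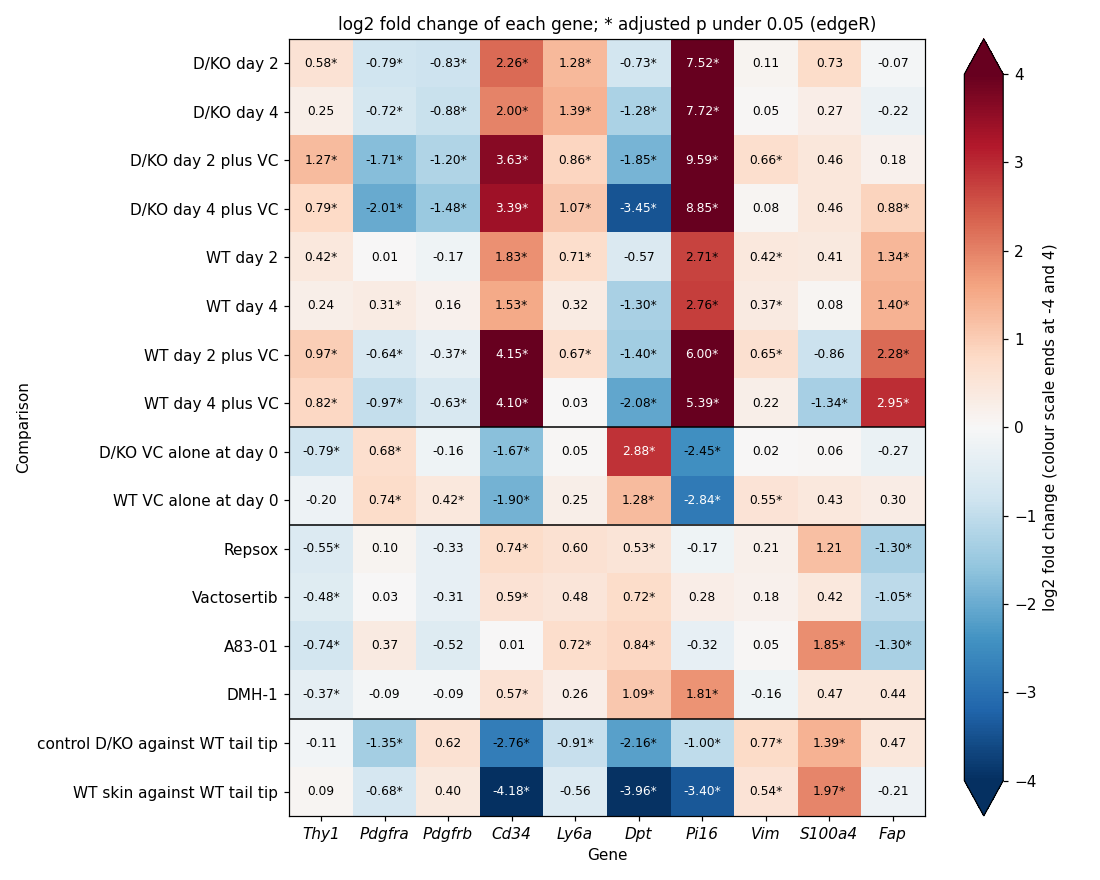
Log2 fold change of each member (columns) in 16 comparisons (rows) as a colour scale that ends at -4 and 4, with the value printed in each cell and an asterisk where edgeR's adjusted p is under 0.05. Pi16 and Cd34 are higher in all 8 comparisons with day 0, and Dpt is lower at D/KO day 4 with VC (-3.45) but higher with VC alone (2.88).

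Vim (chr2:13578738-13587637, plus strand), the vimentin filament of mesenchymal cells, had the highest level per kilobase of the members in 19 of the 20 groups (Ly6a was first in WT tail tip cells, with 1159.5 CPM per kb of exon against 792) and the narrowest span in the reprogramming libraries, where its highest group mean was 2.43-fold its lowest, against 1162-fold for Pi16. In D/KO cells at day 0 it had 1791 CPM per kb of exon, followed by Ly6a (609), Thy1 (212) and Pdgfrb (122), with Fap (1.56) and Pi16 (1.05) at the bottom. By D/KO day 4 with VC, Pi16 had 88.2 CPM per kb, which placed it above Cd34, Dpt, Pdgfrb, Pdgfra and Fap. Vim libraries of D/KO had 7556 to 9749 CPM at day 0, 7069 to 10183 CPM at day 4 and 8186 to 9576 CPM at day 4 with VC, and these overlapped (0.05 ± 0.13, edgeR adjusted p = 0.826 at day 4). At day 2 with VC Vim was higher in both lines (0.66 ± 0.13, edgeR adjusted p = 9.63e-05 in D/KO and 0.65 ± 0.13, edgeR adjusted p = 0.000221 in WT), and by day 4 with VC it was back at 0.08 ± 0.13, edgeR adjusted p = 0.627 and 0.22 ± 0.13, edgeR adjusted p = 0.178. Against day 0 without VC the WT value at day 4 with VC was 0.78 (edgeR adjusted p = 1.15e-05). Without VC the WT rises (0.42 at day 2 and 0.37 at day 4) were lost when WT day 0 replicate 1 was left out (0.33, edgeR adjusted p = 0.224, and 0.28, edgeR adjusted p = 0.204) and with most of the other libraries of those groups left out in turn.

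S100a4 (chr3:90511078-90513352, plus strand), a small calcium-binding protein linked to motile mesenchymal cells, varied too much between libraries of a group for most differences to pass. D/KO libraries had 24.8, 42.6 and 62.5 CPM at day 0, 59.6, 58.5 and 38.6 CPM at day 4 and 44.5, 70.4 and 71 CPM at day 4 with VC, and these overlapped. WT libraries had 70.6, 37.7 and 53.2 CPM at day 0 with VC and 12.7, 14 and 36.9 CPM at day 4 with VC. That fall was called (-1.34 ± 0.38, edgeR adjusted p = 0.00509), but not against day 0 without VC (-0.91, edgeR adjusted p = 0.0565) and not when only the libraries compared were fitted (edgeR adjusted p = 0.113). Of the 10 other S100 genes tested, 5 were called higher and none lower at D/KO day 4 with VC, among them S100a10 (1.10) and S100a3 (2.68). At WT day 4 with VC, S100a10 was higher (0.79) and 4 were lower, S100a11 (-1.17) and S100a6 (-0.70) among them.

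Fap (chr2:62331287-62404419, minus strand), the fibroblast activation protein, was higher in D/KO than in WT cells at day 0 and lower at day 4 with VC. D/KO libraries had 7.87, 8.74 and 9.96 CPM at day 0 and WT libraries 2.54, 2.69 and 3.52 CPM (1.60 ± 0.19, edgeR adjusted p = 1.55e-08). In WT it rose to 8.6, 8 and 6.57 CPM at day 4 (1.40 ± 0.19, edgeR adjusted p = 5.09e-07) and to 26.4, 28.1 and 28.6 CPM at day 4 with VC (2.95 ± 0.19, edgeR adjusted p = 7.63e-16). In D/KO it stayed at 7.44, 7.21 and 8.15 CPM at day 4 (-0.22 ± 0.18, edgeR adjusted p = 0.359) and had 16, 9.69 and 14.8 CPM at day 4 with VC (0.88 ± 0.18, edgeR adjusted p = 6.53e-05). The WT libraries of day 4 with VC were thus all above the D/KO ones and the D/KO change minus the WT change was -1.62 ± 0.26, edgeR adjusted p = 2.17e-05 at day 4 and -2.07 ± 0.26, edgeR adjusted p = 8.6e-08 at day 4 with VC. These are low counts, from 46 to 69 reads a library at WT day 0.

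At day 0 D/KO and WT cells differed in 6 of the 10 members, where 43.0% of all genes differed. Dpt (-1.73 ± 0.25), Pi16 (-4.42 ± 0.27) and Pdgfra (-0.41 ± 0.12) were lower in D/KO, and Vim (0.61 ± 0.13), Fap (1.60 ± 0.19) and Pdgfrb (0.23 ± 0.09) higher. The call for Pdgfra was lost without D/KO day 0 replicate 3 (edgeR adjusted p = 0.0698), and that for Pdgfrb without D/KO day 0 replicate 2 (edgeR adjusted p = 0.186) or WT day 0 replicate 2 (edgeR adjusted p = 0.107) or 3 (edgeR adjusted p = 0.0635). The change over the time course differed between the lines for 5 members by day 4 (14.1% of all genes) and 8 by day 4 with VC (29.1% of all genes). Thy1 and Vim were called in neither of these comparisons of changes. With day 0 without VC as the starting point of both lines, 8 members also differed by day 4 with VC (20.6% of all genes), but Thy1 (-0.61, edgeR adjusted p = 0.00828) and Vim (-0.68, edgeR adjusted p = 0.00828) were then called, and Dpt and S100a4 (1.42, edgeR adjusted p = 0.0535) were not.

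**Figure D3:**
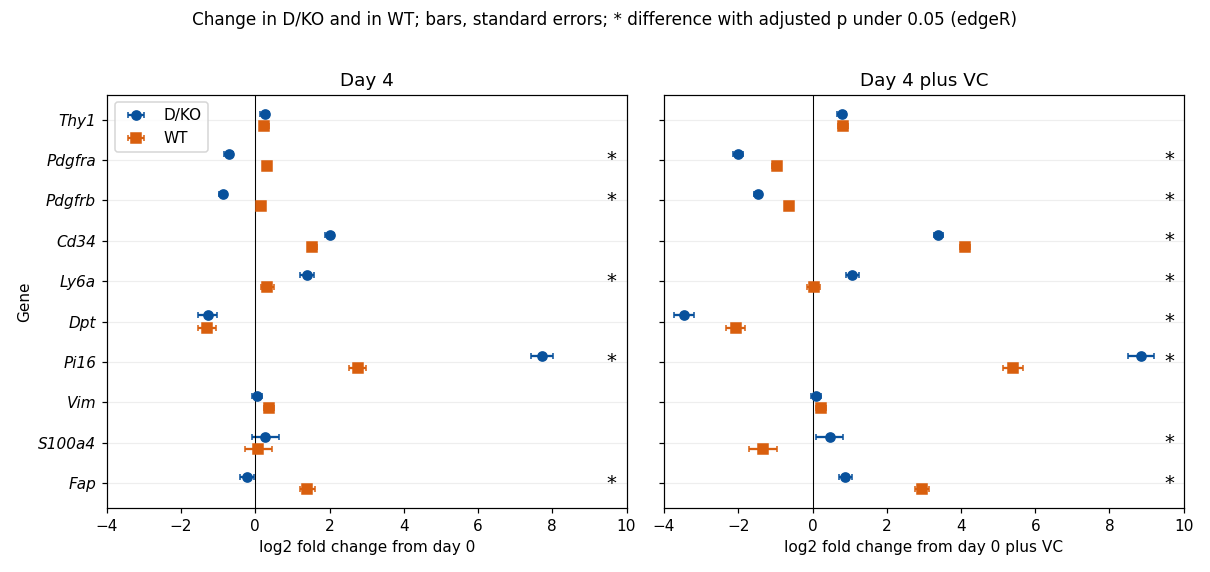
Log2 fold change from day 0 to day 4 of each member in D/KO (circles) and WT cells (squares), with standard errors as bars, without VC on the left and with VC, against day 0 with VC, on the right, and an asterisk where the lines differ at an edgeR adjusted p under 0.05. The points lie far apart for Pi16 (7.72 in D/KO and 2.76 in WT without VC) and at nearly the same value for Thy1 (0.25 and 0.24).

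Among the 16 other surface antigens of cultured mesenchymal cells tested, 8 were called higher and 6 lower at D/KO day 4 with VC (53.8% of all genes called in either direction). The proteoglycan Cspg4 (NG2) rose (3.74 in D/KO and 4.18 in WT) and the hyaluronan receptor Cd44 rose in D/KO (1.45), while the adhesion molecules Mcam (-4.11) and Vcam1 (-1.35) fell in D/KO. In WT 6 were higher, with the ecto-nucleotidase Nt5e (1.77) among them, and 5 lower, with the tetraspanin Cd63 (-1.38) and the integrin chain Itgb1 (-0.74). Of the 15 transcription factors of mesenchymal identity tested, 4 were higher and 6 lower in D/KO and 5 higher and 3 lower in WT (44.5% of all genes). Tbx15 (0.90 in D/KO and 2.05 in WT) and Meox2 (2.21 and 2.35) rose, and Osr1 (-3.32 and -1.51) and Runx1 (-1.14 and -1.01) fell. Beside Vim, the stem cell filament Nes (nestin) rose in both lines (1.51 and 0.72) and the muscle filament Des fell in D/KO (-1.35). The pericyte and smooth muscle markers summed to 1164 to 1780.2 CPM at D/KO day 0, 569.6 to 755 CPM at day 0 with VC and 44.8 to 49.2 CPM at day 4 with VC, most of it Acta2.

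Among the markers of other cell types, tested at day 4 with VC against day 0 with VC, 6 of the 8 keratinocyte genes tested were called higher in each line and none lower, with Perp and Cdh1 at the smallest adjusted p in D/KO and Krt14 and Perp in WT. All 8 mural genes were lower in D/KO and 4 in WT, with Acta2 (-4.30 and -3.89) and the smooth muscle calponin Cnn1 (-4.52 and -4.55) first in both. Of 8 leukocyte genes tested, Laptm5 and Itgam were higher and Lyz2 lower in D/KO, and in WT Laptm5 was higher and 3 were lower, Lyz2 and Adgre1 first. The 2 skeletal muscle genes tested, Chrna1 and Acta1, were higher and lower in that order in both lines. Of 6 Schwann cell and melanocyte genes tested, Erbb3 was higher and Mitf lower in D/KO, and Erbb3 and Mitf higher and Pmel lower in WT. Of 6 genes of the skeletal lineage tested, Bglap was higher (a mean of 0.508 CPM against 0) and 3 were lower in D/KO, Sox9 and Runx2 first. In WT Col2a1 was higher and Comp and Sox9 lower. The 3 adipocyte genes tested were lower in both lines, with Lpl and Fabp4 first.

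The inhibitor experiment asked how D/KO fibroblasts respond when ALK5 or ALK2 is blocked, and 4 or 5 of the members were called with each inhibitor. Repsox changed 4 of the 10 members (20.6% of all genes), Vactosertib 4 (17.9%), A83-01 5 (27.4%) and DMH-1 4 (7.23%). The 4 comparisons share the same 3 control libraries. Thy1 was lower and Dpt higher with each inhibitor. Fap was lower with Repsox, Vactosertib and A83-01, Cd34 was higher with Repsox, Vactosertib and DMH-1, and Pi16 was higher with DMH-1.

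**Figure D4:**
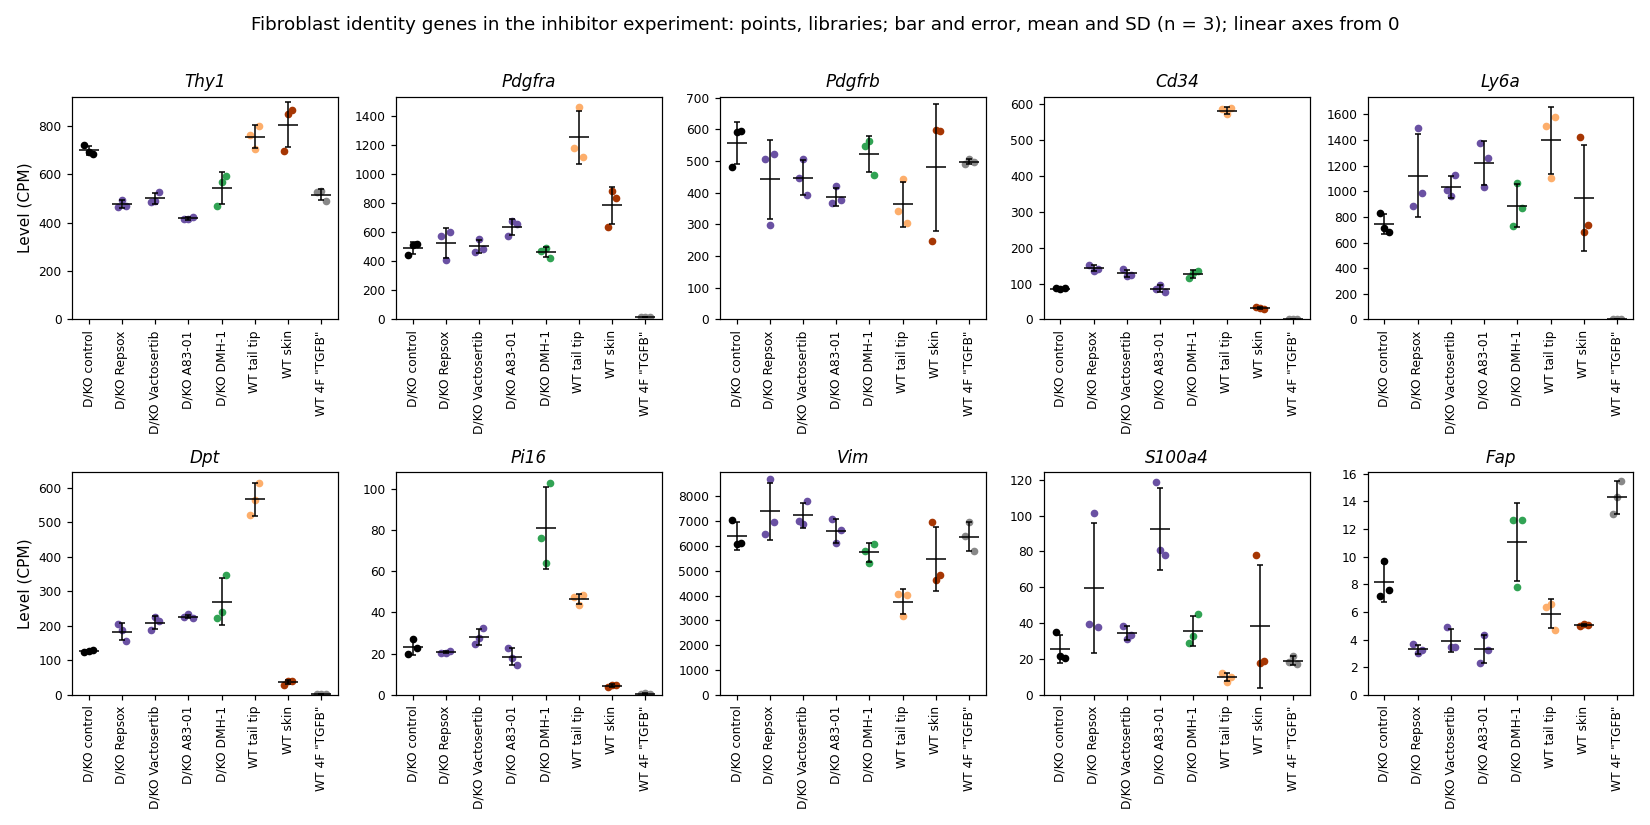
CPM (linear axes from 0) of the 10 members in each of the 24 inhibitor libraries, 1 panel a gene, with points for libraries and bars with error for the group mean and SD. The WT OSKM libraries labelled TGFB lie far below the others for Cd34 (0.922 to 1.58 CPM) and Ly6a (4.58 to 6.87 CPM), and Pi16 with DMH-1 (64.3 to 103 CPM) lies above the other D/KO groups.

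Thy1 had 720.4, 692 and 685 CPM in control D/KO libraries, 465, 494 and 469 CPM with Repsox, 487, 488 and 526 CPM with Vactosertib and 413, 416 and 423 CPM with A83-01. Each of these 3 groups lay below the control without overlap, and the log2 fold changes were -0.55 ± 0.10, edgeR adjusted p = 0.000394, -0.48 ± 0.10, edgeR adjusted p = 0.00174 and -0.74 ± 0.10, edgeR adjusted p = 8.46e-06. With DMH-1 Thy1 had 467, 568 and 591 CPM (-0.37 ± 0.10, edgeR adjusted p = 0.03), a call that was lost when any of 5 libraries was left out, for example DMH-1 replicate 1 (-0.27, edgeR adjusted p = 0.19) or DMH-1 replicate 2 (edgeR adjusted p = 0.0616), and each of the 3 controls.

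Dpt had 124, 127 and 129 CPM in the controls and 223, 239 and 347 CPM with DMH-1, its highest D/KO level (1.09 ± 0.15, edgeR adjusted p = 6.98e-05). With A83-01 it had 225, 233 and 222 CPM (0.84 ± 0.15, edgeR adjusted p = 0.000191) and with Vactosertib 189, 226 and 213 CPM (0.72 ± 0.15, edgeR adjusted p = 0.00149). With Repsox it had 204, 187 and 157 CPM (0.53 ± 0.15, edgeR adjusted p = 0.0142), and without Repsox replicate 1 the rise was 0.44 (edgeR adjusted p = 0.0725). None of the treated libraries overlapped the controls.

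Pi16 had 19.8, 27.1 and 22.7 CPM in the controls and 76.3, 64.3 and 103 CPM with DMH-1, a 3.5-fold higher mean (1.81 ± 0.21, edgeR adjusted p = 7.1e-06). It was 20.3 to 21.2 CPM with Repsox, 24.6 to 32.3 CPM with Vactosertib and 14.7 to 22.9 CPM with A83-01, all of which overlapped the controls. Cd34 had 86.3, 83.8 and 86.8 CPM in the controls, 152, 135 and 141 CPM with Repsox (0.74 ± 0.12, edgeR adjusted p = 0.000115) and 115, 130 and 136 CPM with DMH-1 (0.57 ± 0.12, edgeR adjusted p = 0.0045). With A83-01 it was at the level of the controls (84.7, 96.6 and 77 CPM, 0.01 ± 0.12, edgeR adjusted p = 0.977).

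Fap had 7.11, 9.71 and 7.55 CPM in the controls and 3.66, 3.03 and 3.21 CPM with Repsox, 4.89, 3.44 and 3.45 CPM with Vactosertib and 2.31, 4.35 and 3.22 CPM with A83-01. The 3 treated groups lay below the controls without overlap (-1.30 ± 0.23, edgeR adjusted p = 0.00022, -1.05 ± 0.22 and -1.30 ± 0.23 in the same order). With DMH-1 Fap had 12.7, 7.79 and 12.7 CPM (0.44 ± 0.21, edgeR adjusted p = 0.274).

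S100a4 rose with A83-01, from 34.8, 21.7 and 20.5 to 119, 80.7 and 78.2 CPM (1.85 ± 0.45, edgeR adjusted p = 0.00366). Ly6a was called higher with A83-01 (1377, 1034 and 1256 against 831, 712 and 686 CPM, 0.72 ± 0.25, edgeR adjusted p = 0.0337), but not when A83-01 replicate 1 (0.63, edgeR adjusted p = 0.116) or 3 (edgeR adjusted p = 0.0813) or either of 2 controls was left out. Pdgfra with A83-01 was at 577, 679 and 655 CPM against 444, 513 and 519 CPM (0.37 ± 0.15, edgeR adjusted p = 0.0795). Without the 3 libraries that stood apart that difference was called (0.37, edgeR adjusted p = 0.00177), as was that of Pdgfrb (-0.52, edgeR adjusted p = 9.93e-05). None of those 3 libraries is in the A83-01 or control group, whose spread is estimated in the fit of all libraries. Vim was called with none of the 4 inhibitors. Without the 3 libraries Repsox had the same number of called members, 4. Pdgfrb (-0.31, edgeR adjusted p = 0.0146) and Ly6a (0.48, edgeR adjusted p = 0.00568) were then also called with Vactosertib, a group that holds none of the 3.

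A83-01 and DMH-1, at the same dose and time, were compared directly, as were Repsox and Vactosertib, which made 2 pairs over 10 members. A83-01 and DMH-1 differed in 6 members (20.4% of all genes). Pi16 (-2.13 ± 0.21, edgeR adjusted p = 1.64e-07), Fap (-1.74 ± 0.22, edgeR adjusted p = 6.5e-06), Cd34 (-0.56 ± 0.12, edgeR adjusted p = 0.0017) and Thy1 (-0.38 ± 0.10, edgeR adjusted p = 0.01) were lower with A83-01, and S100a4 (1.38 ± 0.44, edgeR adjusted p = 0.0302) and Pdgfra (0.46 ± 0.15, edgeR adjusted p = 0.037) higher. Thy1 lost its call without DMH-1 replicate 2 (edgeR adjusted p = 0.0523) or 3 (edgeR adjusted p = 0.0644), S100a4 without A83-01 replicate 1 (edgeR adjusted p = 0.115) or DMH-1 replicate 1 or 2, and Pdgfra without any of 5 of the 6 libraries (for example DMH-1 replicate 3, edgeR adjusted p = 0.14), so that the count went as low as 3. Without the 3 libraries that stood apart, Pdgfrb (-0.43, edgeR adjusted p = 0.00101) and Ly6a (0.46, edgeR adjusted p = 0.00665) were called as well, though neither group holds any of them.

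Repsox and Vactosertib differed in none of the 10 members and in 0 of 15652 genes by edgeR (0% called, 342 genes at an unadjusted p under 0.05, and 6 genes, 0.0383%, by DESeq2), which does not show that they act alike. The 95% confidence intervals of the Repsox minus Vactosertib difference in log2 CPM ran from -0.284 to 0.144 for Thy1, -0.102 to 0.405 for Cd34, -0.509 to 0.119 for Dpt and -0.736 to 0.236 for Fap to -0.139 to 1.72 for S100a4, the widest. For Pi16 the interval was -0.876 to -0.0191, the one member at an unadjusted p under 0.05, with 20.3 to 21.2 CPM with Repsox and 24.6 to 32.3 CPM with Vactosertib. Repsox or Vactosertib and A83-01 or DMH-1 were given at different doses and were not compared.

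With A83-01, 13.6% of all genes were called higher and 13.9% lower. Around the members, 9 of the 16 adventitial fibroblast genes were called higher and 2 lower with it. The lectin gene Clec3b (3.78) and Dpp4 (5.76), the peptidase CD26 of fascial fibroblasts, led the higher ones. Dpp4 had a mean of 0.0819 CPM in the controls and 4.73 CPM with A83-01. Col15a1 (-1.86) and the receptor kinase Axl (-0.49) were lower. Repsox (10.9% of all genes higher and 9.7% lower) and Vactosertib (9.29% and 8.65%) each had 9 higher and 0 lower, and DMH-1 (4.33% and 2.9%) 7 higher and 0 lower. Of the 14 mesenchymal transcription factors tested, 10 were higher and 3 lower with A83-01, with Osr2 (3.11) and Twist1 (1.10) higher and Runx1 (-1.77) and Meox1 (-1.86) lower. Of the 16 other surface antigens 6 were higher, Alcam (3.45) and Vcam1 (1.10) among them, and 7 lower, with Anpep (-1.31) and Cd44 (-0.80). Of the PDGF genes, Pdgfd was higher (0.76) and 4 of 7 were lower, Pdgfc (-1.07) and Kit (-2.60) among them. From the other lists, those called with A83-01 were S100b (1.94) and S100a3 (1.60) of 9 S100 genes, Ly6c1 (0.98) of 5 Ly6 genes, and of 5 filament genes Prph (1.55) and Synm (0.79) higher and Des (-0.78) lower.

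Sums of markers of other cell types also differed between the inhibitor groups. The adipocyte markers summed to 66 to 69.5 CPM in the controls, 122 to 134 CPM with Repsox, 109.9 to 115 CPM with Vactosertib, 158 to 186 CPM with A83-01 and 148 to 195 CPM with DMH-1, so that each treated library lay above each control. The mural markers summed to 1285 to 1531 CPM in the controls and were lower without overlap with DMH-1 (549 to 639 CPM) and A83-01 (965 to 1077 CPM), and overlapped the controls with Repsox (1289.7 to 1808 CPM) and Vactosertib (1170.5 to 1309 CPM). The endothelial markers summed to 410.4 to 442 CPM in the controls, 348 to 489 CPM with Repsox, 387 to 476 CPM with Vactosertib, 182 to 233 CPM with A83-01 and 471 to 563 CPM with DMH-1. The keratinocyte markers summed to 3.27 to 4.13 CPM in the controls and were higher without overlap with each inhibitor, from 4.56 to 4.93 CPM with DMH-1 to 10.6 to 15.7 CPM with Repsox. The part of these cell types in the changes of Pi16, Dpt, Cd34 and the other members was not tested. With A83-01, 1 of the 10 endothelial genes was called higher, Tek (1.09), and 6 lower, Tie1 (-1.66) and Kdr (-1.83) first. Of 8 mural genes Rgs5 and Notch3 were higher and 4 lower, Abcc9 (a mean of 0 CPM against 0.974) and Des first. Of 3 adipocyte genes tested Lpl (1.68) and Pparg (2.72) were higher, of 5 keratinocyte genes 3, Dsp and Perp first, and of 7 leukocyte genes Adgre1 and Lyz2. Of 4 skeletal muscle genes tested Acta1 and Chrna1 were lower, and of 5 genes of the skeletal lineage Comp was higher and Sox9 and Runx2 were lower.

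Before any treatment, control D/KO and WT tail tip cells differed in 7 members (34.5% of all genes). Cd34 had 86.3, 83.8 and 86.8 CPM in D/KO and 585, 571 and 589 CPM in WT (-2.76 ± 0.13, edgeR adjusted p = 6.14e-13), Dpt 124 to 129 and 519.8 to 615 CPM (-2.16 ± 0.15, edgeR adjusted p = 5.89e-10), and Pdgfra 444 to 519 and 1116 to 1459 CPM (-1.35 ± 0.16, edgeR adjusted p = 6.51e-07). None of these groups overlapped. Pi16 (a 2.01-fold lower mean, edgeR adjusted p = 0.000526) and Ly6a (-0.91 ± 0.25) were also lower in D/KO, and Vim (0.77 ± 0.15) and S100a4 (1.39 ± 0.46) higher. The S100a4 call was lost without WT tail tip replicate 2 (1.23, edgeR adjusted p = 0.0765) or 3 (edgeR adjusted p = 0.0584) or a control, and without the 3 libraries that stood apart Pdgfrb was called higher in D/KO (0.78, edgeR adjusted p = 2.28e-06). The adipocyte markers summed to 66 to 69.5 CPM in control D/KO and 768 to 793 CPM in WT tail tip cells, the endothelial markers to 410.4 to 442 and 106 to 120 CPM, the mural markers to 1285 to 1531 and 922 to 1136 CPM, and the keratinocyte markers to 3.27 to 4.13 and 13.9 to 15.3 CPM, and the part of these cell types in the differences was not tested.

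WT skin and WT tail tip cells, of the same sex and age by label, differed in 6 members (34.1% of all genes). When only these 6 libraries were fitted they differed in 3, Cd34, Dpt and Pi16. The library titles give the skin and tail tip cells different WT names, so tissue cannot be told apart from line or animal. Cd34 had 35.9, 31.7 and 28.6 CPM in skin, an 18.1-fold lower mean than in tail tip (-4.18 ± 0.14, edgeR adjusted p = 8.74e-15). Dpt had 29.5, 39 and 40.8 CPM in skin and 519.8, 563 and 615 CPM in tail tip (-3.96 ± 0.17, edgeR adjusted p = 4.38e-13), and Pi16 3.62, 4.67 and 4.99 and 47.5, 43.8 and 48.3 CPM (-3.40 ± 0.23, edgeR adjusted p = 3.51e-10). Thy1 in skin was at 697, 847 and 866 CPM (0.09 ± 0.10, edgeR adjusted p = 0.545). Pdgfra was lower in skin (-0.68 ± 0.15, edgeR adjusted p = 0.00162), a call that was lost in the fit of these 6 libraries (edgeR adjusted p = 0.0806), as were those of S100a4 (edgeR adjusted p = 0.0651) and Vim (edgeR adjusted p = 0.174). Markers of other cell types differed as well: the mural markers summed to 3325 to 4753 CPM in skin and 922 to 1136 CPM in tail tip, the endothelial markers to 259 to 321 and 106 to 120 CPM, the skeletal muscle markers to 68.1 to 74.9 and 14.1 to 17.7 CPM, and the adipocyte markers to 439.6 to 598 and 768 to 793 CPM. Their part in the differences was not tested.

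The first skin library differed from the other two in Ly6a (1425, 679 and 736 CPM), Pdgfrb (247, 599.5 and 594 CPM) and S100a4 (77.8, 17.9 and 18.9 CPM). S100a4 (1.97 ± 0.46, edgeR adjusted p = 0.00207) and Vim (0.54 ± 0.15, edgeR adjusted p = 0.00938) were called higher in skin with it. Without the 3 libraries that stood apart, Ly6a was called lower in skin (-1.13, edgeR adjusted p = 4.18e-06), Pdgfrb higher (0.88, edgeR adjusted p = 1.51e-06), and Vim was no longer called (0.22, edgeR adjusted p = 0.0859). S100a4 was 0.74 without them (edgeR adjusted p = 0.0304).

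The WT OSKM cells labelled TGFB have no control of their own line in the inhibitor experiment, so their levels are given with no test. Of the adventitial members they had 0.351, 0.83 and 0.321 CPM of Pi16 (7 to 18 reads), 1.58, 0.922 and 1.33 CPM of Cd34 (20 to 36 reads) and 2.63, 2.67 and 3.21 CPM of Dpt. Ly6a was at 5.31, 6.87 and 4.58 CPM and Pdgfra at 17.6, 14.6 and 18.6 CPM, each below every other library of the experiment. Thy1 (489 to 529 CPM), Pdgfrb (491 to 508 CPM) and Vim (5778 to 6959 CPM) lay within the range of the other groups, and Fap had 13.1 to 15.4 CPM. The mural markers summed to 6627 to 7341 CPM in these cells, most of it Acta2 (5574 to 6244 CPM), the 8 skeletal muscle markers to 1700.1 to 2049.9 CPM against 14.1 to 17.7 CPM in WT tail tip, and the adipocyte markers to 1.33 to 1.98 CPM. The part of these cell types in the levels was not tested.

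Across libraries, the genes most like each member in the 36 reprogramming libraries were ranked among 14941 genes tested in both experiments, by Pearson's r of log2 CPM, which describes libraries that share lines, times and treatments. Of each member the 3 genes with the highest r are given in order, with r over the 36 reprogramming and then over the 24 inhibitor libraries. Cd34 was nearest to Tek (r = 0.97 and 0.96), Bmp6 (0.96 and 0.75) and Add3 (0.96 and 0.82), and Ly6a to Ly6c1 (0.93 and 0.99), Igfbp6 (0.91 and 0.58) and Prr13 (0.91 and 0.57). Dpt was nearest to the carboxypeptidase-like Cpxm1 (0.98 and 0.77), Cap2 (0.96 and -0.19) and Lum (0.95 and 0.95), and Pi16 to Arap1 (0.96 and 0.90), Cpne8 (0.95 and -0.16) and Cd55 (0.95 and 0.87). Pdgfra was nearest to the planar polarity gene Prickle1 (0.96 and 0.59), Tbc1d2b (0.96 and 0.86) and Ripor3 (0.96 and 0.90), and Pdgfrb to Svep1 (0.96 and 0.14), Nid1 (0.96 and 0.66) and Rasa3 (0.96 and 0.34). Thy1 was nearest to Capn1 (0.89 and 0.32), Entpd2 (0.87 and 0.097) and Ccdc74a (0.87 and -0.37), and Vim to Cdc37 (0.88 and 0.24), Pabpc4 (0.87 and 0.10) and Ipo4 (0.87 and 0.065). The tubulin genes Tuba1b (0.73 and 0.49) and Tubb4b (0.73 and 0.67) followed Psmc2 (0.74 and -0.02) for S100a4, and Fap was nearest to Adamts7 (0.84 and -0.19), Ptgs2os2 (0.81 and 0.65) and Pla2g2e (0.78 and 0.15). Among the members, Cd34 and Pi16 had r = 0.89 over the reprogramming and 0.92 over the inhibitor libraries, Pdgfra and Pdgfrb 0.92 and -0.20, and Cd34 and Dpt -0.69 and 0.98, so that the last 2 pairs changed sign between the experiments. The inhibitor values span lines with very different levels, such as the WT OSKM cells labelled TGFB and WT tail tip cells, and over the 15 D/KO inhibitor libraries alone they were 0.37 for Cd34 and Pi16, 0.046 for Pdgfra and Pdgfrb and 0.38 for Cd34 and Dpt.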

How the data were processed

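RNA was sequenced in 36 reprogramming and 24 inhibitor libraries of mouse fibroblasts. The authors trimmed the reads with Trim Galore, checked them with FastQC, aligned them with HISAT2 to GRCm39 and counted them per gene with featureCounts of Subread, and deposited raw counts, 1 table for each experiment. The versions, annotation release, strandedness and handling of multimapping reads are not given in the sources used here. Gene IDs were named with GENCODE M39, in which 56236 of 56980 (98.7%) were found. Genes with enough counts (filterByExpr, minimum 10 in a library and 15 in all) were kept, 15832 and 15652 in the 2 tables, scaled by TMM, and fitted with edgeR 4.0.16 (quasi-likelihood, robust, two-sided) in R 4.3.3, 1 fit a table over all its libraries and groups, with no covariate. The p-values were adjusted by Benjamini-Hochberg over all genes tested, and 0.05 was the threshold. CPM values are TMM scaled, group values are means ± SD over 3 libraries, and log2 fold changes carry a standard error. The standard error was taken from the log2 fold change and its F statistic. The 95% confidence intervals use t quantiles at the residual degrees of freedom of the fit (24 for reprogramming and 16 for inhibitors). The test does not use these, so an interval and its p-value can differ slightly. The 2 tables were normalized separately and no level was tested across them. DESeq2 1.42.0 and other filters, scalings, baselines and subsets were tried, as was leaving out each library. The steps were tested on simulated data.

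The 10 members were given by name and all are reported. The members and the gene lists were chosen with earlier results of these data known. From each other list, the text names the 2 genes with the smallest adjusted p called higher and the 2 called lower at D/KO day 4 with VC, at WT day 4 with VC and with A83-01, and for likeness the 3 genes with the highest r. The calls and sums of 1 marker list in the inhibitor experiment are not reported here. Promoter sequences came from RefSeq (GRCm38.p6) and gene positions from GRCm39.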

Additional observations from a re-analysis of the deposited data

Results flagged for a closer look

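The change from day 0 to day 4 differed between D/KO and WT cells for 5 members without VC (14.1% of all genes) and 8 with VC (29.1%), by edgeR's test of the difference itself. As the D/KO log2 fold change minus the WT one, the values without VC were 4.96 for Pi16, 1.08 for Ly6a, -1.03 for Pdgfra, -1.04 for Pdgfrb and -1.62 for Fap. With VC they were 3.46 for Pi16, 1.80 for S100a4, 1.04 for Ly6a, -0.71 for Cd34, -0.85 for Pdgfrb, -1.04 for Pdgfra, -1.38 for Dpt and -2.07 for Fap, of which Dpt (0.22) and S100a4 (1.42) were not called from day 0 without VC. The lines differ in genotype, sex, age, reporter and source of the OSKM cassette, which cannot be told apart here. At day 2 without VC, Pou5f1 (Oct4) was at 62.16 to 76.01 CPM in D/KO and 12.54 to 48.8 CPM in WT. At day 4 without VC it was at 42.85 to 78.4 CPM in D/KO and 55.96 to 65.8 CPM in WT. The part of these levels in the differences was not tested. No test for an outlying value of a member was made within the groups of 3 libraries.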

How the results depend on the processing

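No paired analysis was possible because the labels carry no replicate numbers that link libraries of different groups. Of 270 tests of a member in a comparison, 149 were called, and among 3813 recomputed values 4 that were called in either fit changed sign (uncalled values were not counted), all with day 0 without VC as the baseline of the VC arm: Dpt at D/KO day 2 with VC (1.03), Pdgfra at WT day 2 with VC (0.10), Pdgfrb at WT day 2 with VC (0.054) and, in a comparison added after seeing the data, the D/KO minus WT difference of Dpt by day 4 with VC (0.22), which the construction of that baseline accounts for, since VC alone had raised Dpt (more in D/KO), Pdgfra and (in WT) Pdgfrb. Under DESeq2, 2 calls of a member were lost and 7 gained, and with DESeq2 size factors in edgeR 2 were lost and 1 gained. With no low count filter 8 were lost and 16 gained, and with only the groups compared 9 were lost and 16 gained. Besides the 4 changes of sign, day 0 without VC as the baseline lost 7 of 41 calls and gained 3 among 9 values without a call. Subtracting the median of all genes left each adjusted p as it was, so it could change no call. With a log2 fold change of 1 or more in size also required, there were left 3 members at D/KO day 2, 3 at WT day 2, 4 at WT day 2 with VC, 5 at WT day 4 with VC, 1 from day 2 to day 4 with VC in D/KO, and 0 in WT from day 2 to day 4 with or without VC. It left 3 with VC alone in D/KO and 3 in WT, 1 with VC at day 4 in D/KO and 1 in WT, 3 for D/KO against WT at day 0, 1 with Repsox, 1 with Vactosertib, 2 with A83-01, 2 with DMH-1 and 3 for A83-01 against DMH-1. With no low count filter, 2 members (Dpt and S100a4) were called from day 2 to day 4 in D/KO, and fitting only the groups compared left 3 for skin against tail tip; the cause was not tested. Leaving out 1 library at a time, the members called ranged from 3 to 6 at WT day 2, 4 to 5 at WT day 4, 0 to 1 and 4 to 5 from day 2 to day 4 in D/KO without and with VC, 0 to 4 and 1 to 3 in WT, 4 to 6 with VC at day 4 in each line, 3 to 5 with Repsox, 3 to 4 with DMH-1 and 3 to 5 for A83-01 against DMH-1. In those fits 102 of 972 recomputed calls were lost, and 18 were gained among 768 values without a call. Without the 3 libraries that stood apart, chosen after seeing the data, 1 call was lost and 9 were gained among 80 values. Low counts limit Fap and Pi16 at day 0, and the spread between libraries of a group limits S100a4.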
